A study of Homo sapiens with 4 samples.

Results

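The genes for the subunits of RNA polymerase II, the enzyme that transcribes messenger RNA, were examined in the human gastric cancer cell line AGS. They were the 10 genes of a named set (POLR2A, POLR2B, POLR2C, POLR2D, POLR2E, POLR2F, POLR2G, POLR2H, POLR2I and POLR2K) that the array annotation gives as the sole symbol of a transcript cluster, out of 18418 genes with such a cluster. A transcript cluster is a set of probes covering 1 transcript locus, and each of the 10 genes had 1. The set was proposed with the ornithogalum and vehicle values already known, so these values are given for the 10 genes as a description and without a test. Cells received 0.01% ornithogalum, a homeopathic formulation, or ethanol as its vehicle control, each for 36 h, with 2 biological replicates and thus 2 arrays (Affymetrix Human Gene 1.0 ST) per group. All cells were grown in DMEM-F12 medium with 10% serum and treated near confluence. Whether replicates were separate experiments is not stated in the labels, and p-values therefore reflect only how much these samples varied, which may be technical. The comparison asks whether POLR2A differed alone or together with the other subunits.

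RNA polymerase II is built from large catalytic subunits and a set of small ones. POLR2A and POLR2B form the active centre, and POLR2A also carries the C-terminal domain (CTD), a tail of repeated peptides whose phosphorylation marks initiation, elongation and termination. POLR2C starts the assembly of the complex together with POLR2J, POLR2D and POLR2G form a stalk near the exit of the new RNA, and POLR2I sits at the jaw and in yeast affects start site choice and fidelity. POLR2E, POLR2F, POLR2H, POLR2K and POLR2L are shared with RNA polymerases I and III. AGS cells use the complex as all cells do, and nothing in it is particular to the stomach.

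The upstream sequences of the subunits that the results turn on come from the RefSeq annotation of GRCh38.p14, which matched 7 of the 10 genes. They are the 250 bases before the annotated start of POLR2A (chr17:7484116-7484365, plus strand), of POLR2E (chr19:1095376-1095625, minus strand), a shared subunit that was higher with ornithogalum, and of POLR2B (chr4:56978646-56978895, plus strand), the catalytic partner of POLR2A, which differed little. Capitals mark matches to the motifs searched, on either strand, and no marked motifs overlap here.
POLR2A: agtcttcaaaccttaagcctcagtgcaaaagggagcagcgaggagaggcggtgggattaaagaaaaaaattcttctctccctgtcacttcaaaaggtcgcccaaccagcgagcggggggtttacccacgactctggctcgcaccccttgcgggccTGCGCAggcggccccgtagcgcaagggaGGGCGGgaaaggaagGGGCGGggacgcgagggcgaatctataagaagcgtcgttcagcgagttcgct
POLR2E: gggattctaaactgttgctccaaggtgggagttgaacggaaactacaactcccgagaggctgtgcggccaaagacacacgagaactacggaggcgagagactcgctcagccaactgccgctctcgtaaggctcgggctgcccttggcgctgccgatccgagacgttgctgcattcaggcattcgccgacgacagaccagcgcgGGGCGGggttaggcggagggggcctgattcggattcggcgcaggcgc
POLR2B: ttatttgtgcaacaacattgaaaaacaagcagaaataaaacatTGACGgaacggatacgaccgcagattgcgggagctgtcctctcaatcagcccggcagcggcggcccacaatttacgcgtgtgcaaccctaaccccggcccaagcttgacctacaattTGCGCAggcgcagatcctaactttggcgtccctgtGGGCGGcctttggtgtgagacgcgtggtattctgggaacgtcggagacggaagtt
The POLR2A stretch held 2 GC boxes (GGGCGG), from 67 to 62 and from 52 to 47 bases before the start, and 1 match to the core of the NRF1 motif (TGCGCA) from 95 to 90 bases before it. POLR2E held 1 GC box from 47 to 42 bases before its start. POLR2B held 1 GC box, 1 NRF1 core and 1 match to the core of the cyclic AMP response element (TGACG). GC boxes were found in 6 of the 9 upstream windows of the matched members (some genes have more than 1 annotated start) and in 42.6% of all 35116 windows of this length. The NRF1 core was found in 5 of the 9, in windows of POLR2A, POLR2B, POLR2F and POLR2H, and in 6.89% of all windows. The 2 windows of POLR2F overlap and hold the same NRF1 core, so that site is counted more than once among the 5. The 9 windows held no TATA box (TATAAA, in 10.7% of all windows), no CCAAT box (CCAAT, in 32.0%), no E-box (CACGTG, in 6.34%) and no AP-1 motif (TGANTCA, in 6.57%). The ETS motif CCGGAAG was in windows of POLR2C and POLR2F and in 8.52% of all windows, and TGACG, which POLR2B held, in 21.2%. Each member window had more CpG dinucleotides, 16 to 41, than the median window, 11. These matches describe the letters and are not sites shown to be bound.

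Values are deposited log2 expression values made by the authors, so a difference of 1 is a 2-fold change. The ornithogalum arrays stood further apart than the vehicle arrays: the pooled SD between the arrays of a group, over 21214 clusters with a gene symbol, was 0.258 for ornithogalum and 0.140 for vehicle. Pearson's r between the arrays of a group, across clusters, was 0.981 for ornithogalum and 0.995 for vehicle. Array medians were 4.48 and 4.62 with ornithogalum, against 4.71 and 4.70 with vehicle. Log2 values of 7 epithelial markers ran from 6.54 to 10.6 over the 4 arrays, and those of 15 fibroblast, leukocyte, endothelial or erythroid markers from 1.40 to 5.54. Since these are different probes with no measure of background, the values describe the arrays and do not test the cell type label. Of the epithelial markers limma called 0 higher and 2 lower, the keratin gene KRT19 (log2 difference -1.40, limma adjusted p = 0.00437) and the claudin gene CLDN7 (-0.76, limma adjusted p = 0.0214); 1 was higher with an unadjusted p under 0.05. The epithelial values summed to 59.9 and 59.2 with ornithogalum, against 60.9 and 60.9 with vehicle. Of the other 15 markers limma called 0 as changed, with 0 at an unadjusted p under 0.05, and their values summed to 50.05 and 49.4 with ornithogalum, against 48.2 and 48.4 with vehicle. The part of either marker group in the results below was not tested. In bulk RNA a change in cell make-up and a change in RNA per cell cannot be told apart.

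POLR2A was the subunit gene with the largest difference. It had log2 values of 8.48 and 8.46 on the ornithogalum arrays, against 6.99 and 6.94 on the vehicle arrays. Both ornithogalum arrays were high and both vehicle arrays low, with a gap of 1.48 between the groups, while arrays of the same group were 0.018 (ornithogalum) and 0.048 (vehicle) apart. The means were 8.47 ± 0.013 with ornithogalum and 6.96 ± 0.034 with vehicle (SD, n = 2 per group), a log2 difference of 1.51 (SE 0.11) or 2.85-fold. This was the 128th highest difference of the 21214 clusters.

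POLR2B, which shares the active centre with POLR2A, did not show that pattern. Its values were 7.99 and 7.98 with ornithogalum, against 8.13 and 8.09 with vehicle. The ornithogalum arrays were lower by a gap of only 0.10, and the log2 difference was -0.12 (SE 0.11). This small difference turned to 0.036 after each array was centred on its median, so its direction depended on the scaling.

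**Figure D1:**
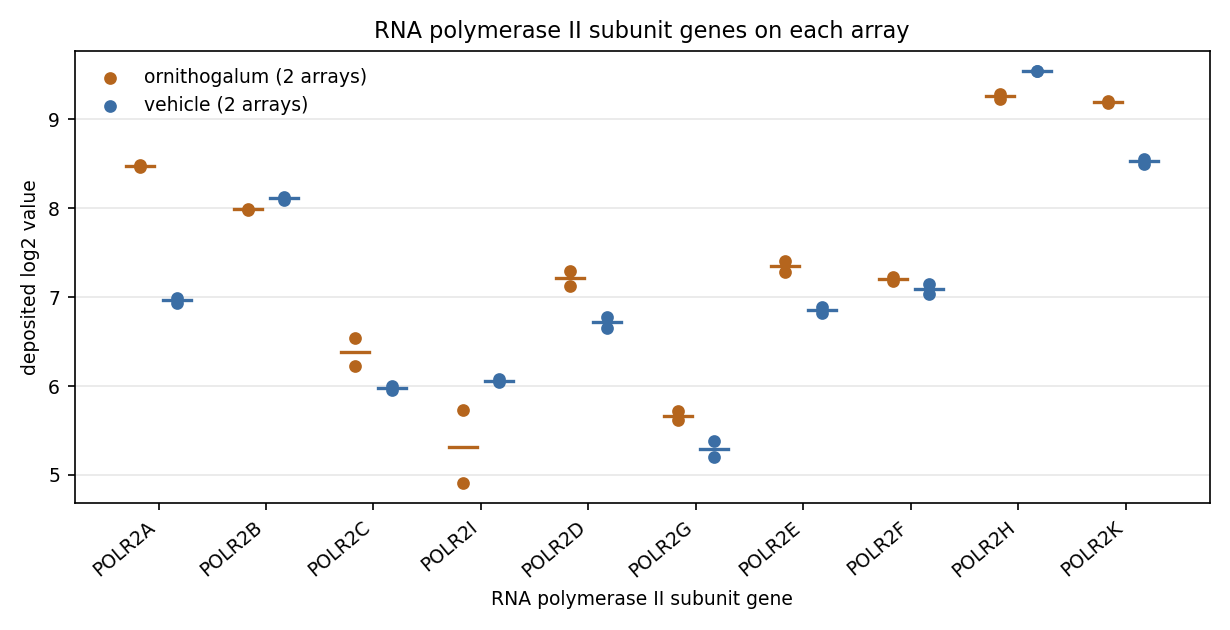
Deposited log2 value of each RNA polymerase II subunit gene on each array, with ornithogalum arrays in brown on the left, vehicle arrays in blue on the right and a bar at each group's mean (n = 2 per group). POLR2A lies at 8.48 and 8.46 with ornithogalum, against 6.99 and 6.94 with vehicle, and the ornithogalum arrays of POLR2I are the furthest apart. Levels of different genes come from different probes and are not compared.

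The assembly subunit gene POLR2C had values of 6.23 and 6.54 with ornithogalum, against 6.00 and 5.95 with vehicle. Both ornithogalum arrays were higher, but they were 0.31 apart, and the log2 difference was 0.41 (SE 0.15). POLR2I, the jaw subunit gene, had values of 4.91 and 5.73 with ornithogalum, against 6.04 and 6.08 with vehicle. It was lower on both ornithogalum arrays, by 1.15 on the first and 0.33 on the second relative to the vehicle mean, and had the widest spread of the 10 genes. The log2 difference of POLR2I was -0.74 (SE 0.28), or 1.67-fold lower.

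The stalk subunit genes were both higher with ornithogalum by similar amounts. POLR2D had values of 7.12 and 7.30 with ornithogalum, against 6.77 and 6.66 with vehicle, a log2 difference of 0.50 (SE 0.13) or 1.41-fold. POLR2G had values of 5.72 and 5.62 with ornithogalum, against 5.20 and 5.38 with vehicle, a log2 difference of 0.38 (SE 0.13) or 1.30-fold. Neither gene's groups overlapped, with gaps of 0.35 for POLR2D and 0.24 for POLR2G.

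The subunit genes shared with polymerases I and III went both ways. POLR2K had values of 9.20 and 9.18 with ornithogalum, against 8.55 and 8.50 with vehicle. All arrays of a group lay close together, and the log2 difference of 0.67 (SE 0.11), or 1.59-fold, was the next highest of the set after POLR2A. POLR2E had values of 7.29 and 7.41 with ornithogalum, against 6.89 and 6.83 with vehicle, a log2 difference of 0.49 (SE 0.12) or 1.40-fold. POLR2F had values of 7.23 and 7.18 with ornithogalum, against 7.15 and 7.03 with vehicle. For POLR2F the gap between the groups was 0.031, smaller than the 0.11 between its vehicle arrays, and the log2 difference was 0.11 (SE 0.12). POLR2H had values of 9.28 and 9.23 with ornithogalum, against 9.54 and 9.54 with vehicle. Both ornithogalum arrays of POLR2H were lower, with a log2 difference of -0.28 (SE 0.11).

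Set side by side, POLR2A stood well above the other 9 genes, which went both ways. Of these 9 genes, 6 had a positive and 3 a negative log2 difference, from -0.74 to 0.67. Their median was 0.38 (1.30-fold), where the median of all clusters tested was 0.035. As the latter is positive too, a positive difference was also the commoner direction over all clusters, and nothing is read from the 6. The difference of POLR2A exceeded the median of the other 9 genes by 1.13 and that of POLR2K by 0.84. On the first ornithogalum array POLR2A lay 1.52 above its vehicle mean, where the highest of the other 9 genes lay 0.68 above its own. On the second ornithogalum array the values were 1.501 against 0.66. POLR2L, a subunit outside the set that is described below, lay 1.01 and 0.76 above its vehicle mean. Its log2 difference of 0.88 was nearer to that of POLR2A than POLR2K's was. By role, the median difference was 0.44 for the stalk genes and 0.30 for the 4 shared genes. The groups did not overlap for any of the 10 genes, higher with ornithogalum for 7 and lower for 3, where arrays did not overlap in 62.2% of all clusters, 32.0% higher and 30.2% lower.

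**Figure D2:**
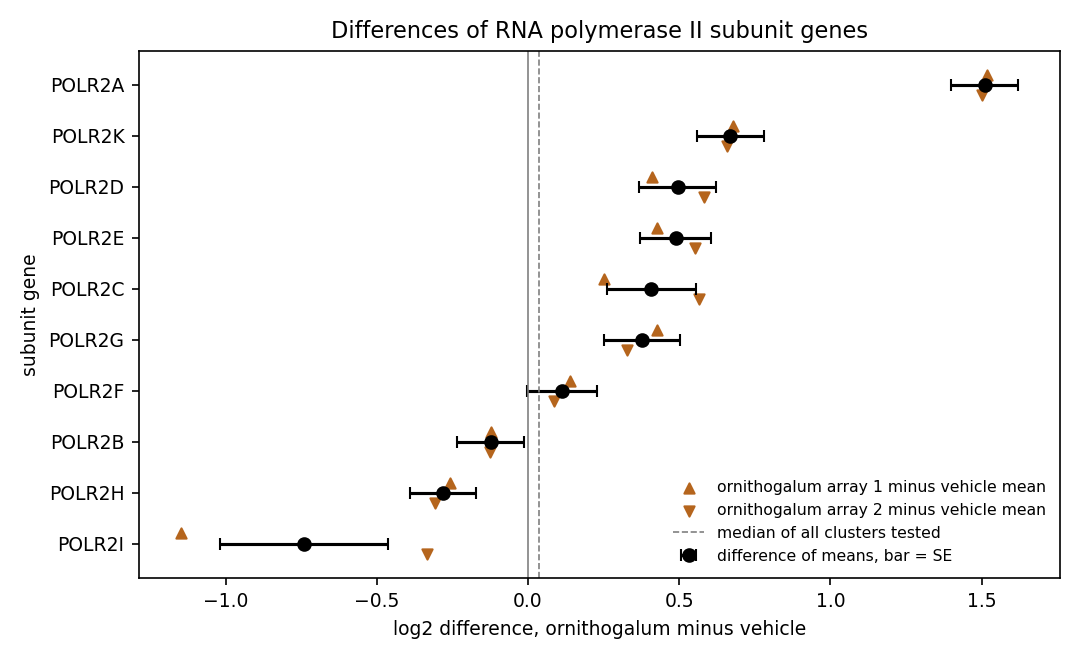
Log2 difference, ornithogalum minus vehicle, of each subunit gene (black, bar = SE from the fit over all clusters), with brown triangles for each treated array minus the mean of the vehicle arrays and the median of all clusters, 0.035, as a dashed line. POLR2A at 1.51 is separate from the next gene shown, POLR2K at 0.67, and the triangles of POLR2I are the widest apart. POLR2L, a subunit outside the set with a log2 difference of 0.88, is not shown.

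In limma's fit over 21214 clusters with Benjamini-Hochberg adjustment, 3 of the 10 genes were called higher, POLR2A, POLR2K and POLR2E, and 0 lower, where 6.57% of all clusters were called higher and 12.6% lower (19.2% in either direction). At an unadjusted p under 0.05 the counts were 6 higher and 2 lower, where 14.2% of all clusters were higher and 19.6% lower (33.8% in either direction). Since the genes were proposed with this comparison in view, nothing is read from these counts. After each array was centred on its median, 2238 clusters were called higher and 1898 lower, against 1393 and 2683, and 5 members were called higher. Without vehicle replicate 1 or without vehicle replicate 2, 0 members and 0 of all clusters were called. Without ornithogalum replicate 1, 5 members were called higher and 0 lower, where 20.4% of all clusters were called in either direction. Without ornithogalum replicate 2, 2 members were called higher and 1, POLR2I, lower, where 33.3% of all clusters were called, a share near that of the members. Among the settings that kept all arrays, POLR2A was called in each except that without moderation, where 0 members were called. These settings re-use the arrays on which the genes were proposed. They show only how the call depends on processing, are not a test of POLR2A, and nothing more is read from them.

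**Figure D3:**
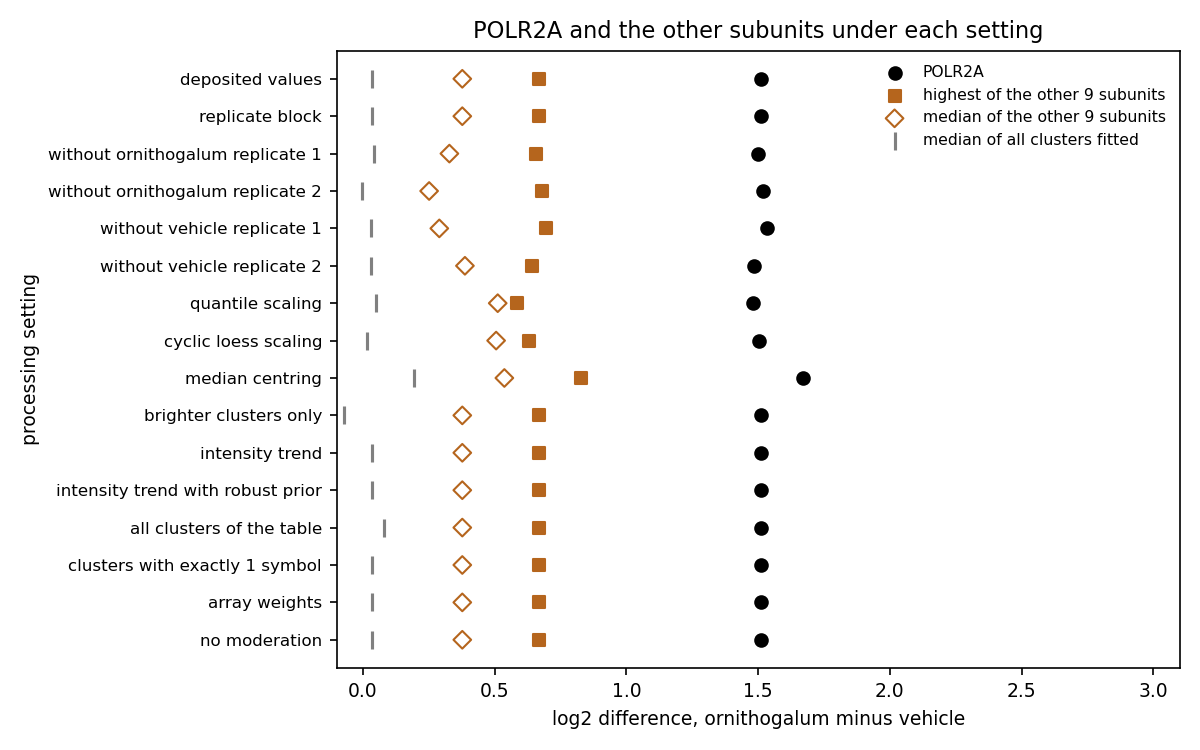
Log2 difference of POLR2A (black), the highest (squares) and the median (diamonds) of the other 9 subunit genes and the median of all clusters fitted (grey), under each processing setting. POLR2A stays between 1.48 and 1.67 and the highest of the other 9, POLR2K in each setting, between 0.59 and 0.83. POLR2L, a subunit outside the set, is not shown.

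Other genes with a POLR2 symbol were looked at beside the 10. POLR2L, the remaining shared subunit, rose 1.84-fold (log2 difference 0.88, SE 0.13, limma adjusted p = 0.0136, higher on 2 of 2 ornithogalum arrays). Its values were 9.35 and 9.11 with ornithogalum, against 8.33 and 8.36 with vehicle, so it had a larger difference than any of the shared subunit genes above. Its adjusted p was 0.135 without vehicle replicate 1 and 0.131 without vehicle replicate 2 in limma's fit. POLR2J, the partner of POLR2C, had values of 5.11 and 5.49 with ornithogalum, against 5.11 and 5.22 with vehicle, and its groups overlapped (log2 difference 0.14, SE 0.16, limma adjusted p = 0.604). POLR2J has near-identical copies, and clusters that the annotation gives to several of them are not named here. POLR2M, which encodes a protein that binds the polymerase and restrains initiation, had values of 5.09 and 5.70 with ornithogalum, against 5.99 and 5.92 with vehicle, in 1 cluster (log2 difference -0.56, adjusted p = 0.153 in limma's fit). A second POLR2M cluster had a log2 difference of -0.61 (adjusted p = 0.121 in limma's fit), and whether the probes of both overlap was not checked.

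The 5 clusters whose values over the 4 arrays were nearest to those of POLR2A, by Euclidean distance after subtracting each cluster's own mean, were those of TM4SF1 (distance 0.052), CCNL1 (0.053), ATF3 (0.053), ZBTB43 (0.055) and HIVEP1 (0.058). TM4SF1 encodes a membrane protein of the tetraspanin-like family, CCNL1 a cyclin of the splicing machinery, ATF3 a stress-induced transcription factor, and ZBTB43 and HIVEP1 zinc finger proteins. Their log2 differences lay between 1.49 and 1.57, close to the 1.51 of POLR2A by construction. ATF3, for example, had values of 5.76 and 5.71 with ornithogalum, against 4.29 and 4.18 with vehicle.

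Other genes of the transcription machinery were taken from 4 lists, all of whose calls were lost (0 called) without vehicle replicate 1 or without vehicle replicate 2. The general transcription factors, which place the polymerase at promoters, had 3 of 17 measured genes higher and 7 lower. Their median log2 difference was -0.14. Over all clusters 6.57% were called higher and 12.6% lower, with a median of 0.035. Where only the 10607 brighter clusters were fitted, their median was -0.072 and 45.6% were called in either direction. The medians of all 4 lists lay nearer to -0.072 than to 0.035. The lists were chosen with earlier results of these data known, so their counts are a description. GTF2B (TFIIB), which recruits the polymerase to the promoter, rose 3.22-fold, with values of 9.01 and 8.86 with ornithogalum, against 7.31 and 7.18 with vehicle (log2 difference 1.69, SE 0.12, limma adjusted p = 0.00336). CCNH, the cyclin of the CTD kinase in TFIIH, rose 2.21-fold. GTF2H3, a core subunit of TFIIH, fell 4.35-fold and GTF2A1, a subunit of TFIIA, fell 2.03-fold.

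Factors that act on the elongating polymerase or on its CTD were called lower in 12 of 30 measured genes (40%) and higher in 1, PAF1, with a median of -0.14. Over all clusters 12.6% were called lower and 6.57% higher. Where only the 10607 brighter clusters were fitted, 12 genes of this list and 3021 of those clusters were called lower. The lower calls ran from 0, without a vehicle array or without moderation, to 13, and the higher calls from 0 to 5. RTF1, which works with the PAF1 complex, fell 2.16-fold, with values of 6.59 and 6.44 with ornithogalum, against 7.65 and 7.60 with vehicle. SUPT16H and SSRP1, the subunits of the histone chaperone FACT, fell 2.05-fold and 1.86-fold. CTDSPL, a phosphatase of the CTD phosphatase family, fell 3.21-fold, with values of 4.76 and 5.29 with ornithogalum, against 6.68 and 6.74 with vehicle. The lower call of SSU72, a CTD phosphatase, held for the brighter of its 2 clusters only (log2 difference -0.73). The other SSU72 cluster went the opposite way (0.30) and was not called. SSRP1 also had a second, dimmer cluster that was not called (log2 difference -0.21).

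Factors for assembly, import and turnover of the polymerase were called higher in 4 and lower in 4 of 30, with a median of -0.081. For this list and that of polymerases I and III below, the shares over all clusters were 6.57% higher and 12.6% lower. The higher call of the assembly and turnover gene ELOC held for the brighter of its 2 clusters only (log2 difference 0.97, against 0.33 in the other). Lower calls numbered 8 without ornithogalum replicate 2, and 0 without a vehicle array. RUVBL1, an ATPase of the chaperone complex that helps assemble the polymerase, fell 5.09-fold, with values of 4.22 and 4.86 with ornithogalum, against 6.81 and 6.97 with vehicle. URI1, a prefoldin-like partner of POLR2E, fell 1.77-fold, while the prefoldin gene PFDN2 rose 2.19-fold and PDRG1, another prefoldin-like gene, rose 2.18-fold. Subunits of polymerases I and III that polymerase II lacks were called higher in 3 and lower in 3 of 18, with a median of -0.084. Among these the polymerase I subunit gene POLR1H rose 2.52-fold and the polymerase III genes POLR3D, POLR3B and POLR3GL had a rise of 1.65-fold, a fall of 2.45-fold and a fall of 1.66-fold. POLR3B encodes the catalytic partner subunit of polymerase III, the counterpart of POLR2B. Its values were 3.56 and 3.46 with ornithogalum, against 4.95 and 4.65 with vehicle. Those of POLR3GL were 2.96 and 2.90 with ornithogalum, against 3.69 and 3.63 with vehicle. The values of both genes lay within the range of the markers of other cell types, 1.40 to 5.54, so these are falls of dim clusters. Over the 16 genes of smallest p in these lists, 4 per list, limma's adjusted p lay between 0.00336 and 0.0153.

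**Figure D4:**
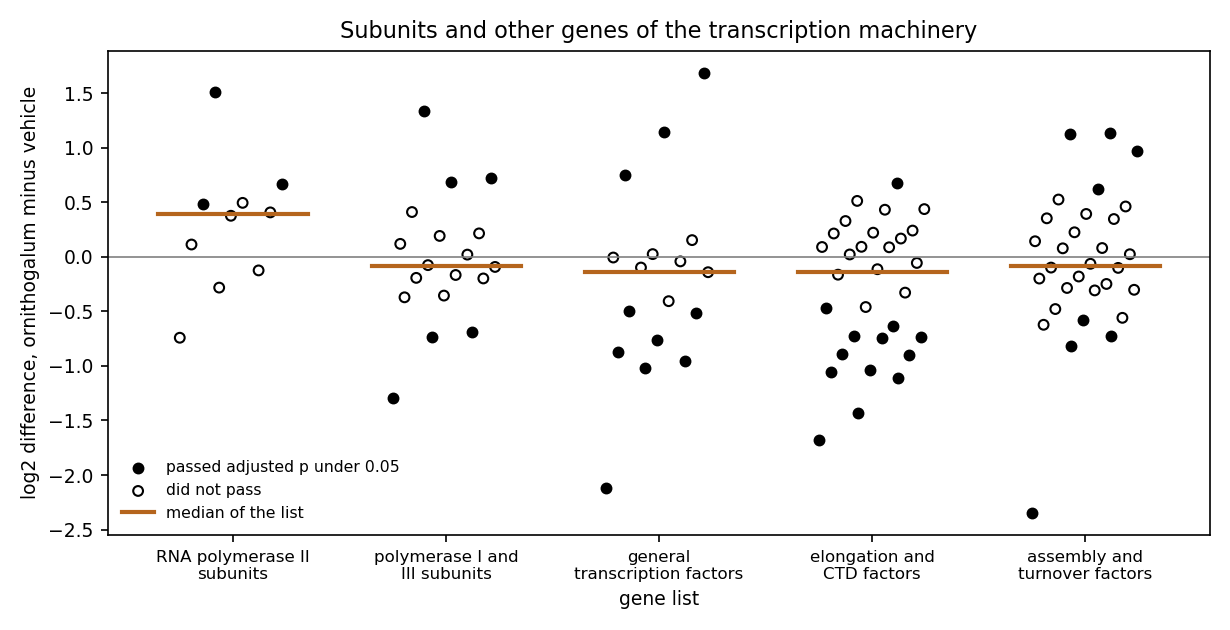
Log2 difference, ornithogalum minus vehicle, of the 10 RNA polymerase II subunit genes and of 4 lists of other transcription genes, 1 point per gene, filled where limma's adjusted p was under 0.05, with a brown bar at each list's median. The subunits have a median of 0.39 and the other lists medians between -0.14 and -0.081. The median of all clusters was 0.035 and that of the 10607 brighter clusters -0.072. Of the elongation and CTD factors, 12 of 30 lie lower as filled points, where 12.6% of all clusters were called lower. The members were chosen on this comparison and the lists with earlier results of these data known, so all filled points are a description.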

How the data were processed

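RNA from 4 AGS cultures, 2 given ornithogalum and 2 given vehicle, was profiled on arrays, so there is no read depth and precision is limited by how few arrays there are. Per the submitters' processing notes, the authors made the deposited log2 expression values by RMA with Affymetrix Expression Console 1.1; its settings are not given here. Of 33297 clusters, 19461 have 1 symbol, 1753 several and 12083 none in the platform annotation, and 19430 of the clusters with 1 symbol matched the RefSeq gene table, from which their current symbols were taken. The 21214 clusters with a symbol were fitted by limma 3.58.1 under R 4.3.3 (eBayes after lmFit, two-sided, Benjamini-Hochberg adjustment over these clusters, threshold 0.05), with no filter on dim clusters. SEs are limma's, and SDs are over 2 arrays. The fit was also run on simulated data with equal noise in both groups. Noise differed between the groups here, so that run does not test these calls. "Rose" and "fell" mean an adjusted p under the threshold.

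The members, lists and named genes were chosen with earlier results of these data known. Lists held 100 entries, 95 measured, each gene by its cluster of highest mean. All 10 members, every POLR2 gene with a sole symbol, the 4 called genes of smallest p per list and the 5 clusters nearest to POLR2A are named; SSU72, PAF1 and SSRP1's second cluster were added after their values were seen, and the promoter motifs after the windows were seen. Alternatives were a replicate block, leaving out each array, 3 scalings, brighter clusters, an intensity trend (also with a robust prior), other cluster sets, array weights and no moderation.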

Additional observations from a re-analysis of the deposited data

How the results depend on the processing

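With 2 arrays per group 0 clusters were called without vehicle replicate 1 or without vehicle replicate 2, and signal over background was not given. The difference of POLR2A was 1.48 after quantile scaling and 1.67 after median centring, and 1.49 to 1.53 with an array left out. Its excess over the median of the other 9 subunits was 0.97 after quantile scaling, 1.00 after cyclic loess and 1.099 to 1.27 with an array left out. Median centring moved the median difference of all clusters from 0.035 to 0.195. POLR2B then turned from -0.12 to 0.036, and POLR2J, at 0.14 with all arrays, ran from -0.051 to 0.32 with an array left out, the lowest without ornithogalum replicate 2.

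Members called higher numbered 6 after quantile scaling, 5 after cyclic loess and 5 after median centring, with 0 lower each time. Of all clusters 1817, 1738 and 2238 were then called higher, and 19.4%, 20.6% and 19.5% were called in either direction. Among brighter clusters 5 members were called higher and 0 lower. Of the 10607 clusters fitted there, 1811 were called higher and 3021 lower. That is 45.6% in either direction, about the members' own share in either direction. Without moderation 0 members and 0.00471% of all clusters were called. Members called lower numbered 1 with an intensity trend (24.4% of all clusters called, or 24.1% with a robust prior), and 0 to 1 with an array left out. Over all clusters, median centring called 2238 higher (against 1393) and 1898 lower (against 2683), the fit of the whole table called 1677 lower, and no moderation 0 higher and 1 lower. With an array left out, 0 to 3054 were called higher and 0 to 4004 lower.

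Elongation and CTD factors called higher numbered 2 after quantile scaling, 3 after cyclic loess, 4 after median centring and 5 among brighter clusters or with an intensity trend, with or without a robust prior, against 1. Assembly and turnover factors called higher numbered 7 after each of the 3 scalings and 8 among brighter clusters, against 4. Polymerase I and III subunits called lower numbered 1 among brighter clusters, against 3. The clusters of POLR3B and POLR3GL were below the brightness cut and were not fitted there. With every cluster of the table fitted, 4 general transcription factors, 7 elongation and CTD factors and 2 assembly and turnover factors were lower. Without moderation each of the 4 lists had 0 called in either direction. With an array left out, higher and lower calls ran from 0 to 3 and 0 to 3 for polymerases I and III, 0 to 3 and 0 to 6 for general factors, 0 to 3 and 0 to 13 for elongation, and 0 to 6 and 0 to 8 for assembly.

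Same-numbered arrays had deviations correlating at -0.059, so the numbers were not taken to pair the samples. With the replicate number as a block, 2 members were called higher (POLR2A and POLR2K) and 0 lower, and 3302 of all clusters against 4076. Beyond what is named here and in the text above, the cause of these shifts was not tested.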
